A study of Mus musculus with 8 samples.

Results

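The genes described here handle iron in the cell. They were chosen by symbol as the rows of the deposited count table named Fth1, Ftl1, Slc40a1, Cp, Tfrc, Slc11a2, Slc11a1, Hmox1 and Ireb2, and all 9 were found among its 51810 rows. Their RNA was measured in CD11b-selected brain cells of wild-type mice from 4 groups of 2 libraries each, which were white matter at 21 months, grey matter at 21 months, white matter at 4 months and grey matter at 4 months. White matter was the corpus callosum. The labels give that same region for the grey matter samples, so the titles and the tissue label alone separate the regions. The design text names no treatment, transgene or strain beyond wild type, and CD11b is carried by microglia and by other myeloid cells. The labels do not say whether replicate libraries are separate mice, and p-values therefore describe only the spread between these libraries, which may be technical.

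Iron enters most cells bound to transferrin through the transferrin receptor, encoded by Tfrc, and leaves endosomes through the divalent metal transporter encoded by Slc11a2. Phagocytes also take up iron with debris and red cells: haem oxygenase 1, encoded by Hmox1, opens the haem ring, and the product of Slc11a1 (Nramp1) moves metal out of the phagosome. Ferritin, a shell of heavy (Fth1) and light (Ftl1) chains, stores what is not used, and ferroportin (Slc40a1), helped by the ferroxidase ceruloplasmin (Cp), exports it. The RNA-binding protein IRP2, the product of Ireb2, holds these steps together by binding a hairpin, the iron-responsive element. Bound near the start of a message, as in ferritin and ferroportin, it blocks translation. Bound behind the coding region of Tfrc, it protects the message from decay. In the brain, oligodendrocytes and microglia are known as iron-rich cells, and myelin production needs iron.

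The hairpins are shown because these letters are the element through which ferritin, ferroportin and transferrin receptor messages are known to be controlled, and the search shows which of the 9 messages hold them. They were taken from GENCODE M21 transcripts on GRCm38, credited to that annotation; the build behind the count table is not given in the sources used here. The search looked, on the message strand only, for a C, any 5 bases and the loop CAGTGN, followed by 5 bases that pair with the 5 before the loop, G-T pairs allowed, in annotated untranslated regions (UTRs). Capitals mark the loop of 6 bases, and each line runs 5′ to 3′ over 29 bases of DNA letters.
Fth1: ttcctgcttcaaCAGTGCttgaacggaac
Ftl1: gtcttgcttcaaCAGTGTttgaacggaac
Slc40a1: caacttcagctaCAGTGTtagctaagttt
Tfrc (a): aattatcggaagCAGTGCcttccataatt
Tfrc (b): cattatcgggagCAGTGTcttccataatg
Tfrc (c): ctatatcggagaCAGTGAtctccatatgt
Tfrc (d): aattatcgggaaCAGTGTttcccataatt
Slc11a2: agccatcagagcCAGTGTgtttctatggt

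The Fth1 element lies at chr19:9982732-9982760 on the plus strand in exon 1, that of Ftl1 at chr7:45459779-45459807 on the minus strand in exon 1, and that of Slc40a1 at chr1:45925465-45925493 on the minus strand in exon 1, all in the 5′ UTR. The 4 Tfrc elements lie in the 3′ UTR, in exon 19 on the plus strand, from chr16:32631219-32631247 to chr16:32631710-32631738. The Slc11a2 element lies in the 3′ UTR of the transcript Slc11a2-205, in exon 16 on the minus strand at chr15:100395153-100395181. It has 4 of the 5 stem pairs, while the other 7 elements have all 5. For scale, 0.104% of 20288 genes with a 5′ UTR and 0.56% of 20883 genes with a 3′ UTR of at least 17 bases held a full match there, and the share was 0.116% among 5′ UTRs of 100 to 400 bases and 0.825% among 3′ UTRs of 1000 to 3000 bases. Those shares used only the longest coding transcript of each gene and only matches with all 5 pairs. The 9 genes were searched over all their coding transcripts, and no share was counted for 4 pairs. On their longest transcripts, Fth1, Ftl1 and Slc40a1 each held 1 full match in the 5′ UTR and Tfrc held 4 in the 3′ UTR. No match with at least 4 pairs was found in the UTRs of Cp, Slc11a1, Hmox1 or Ireb2. A match of letters is a description and was not measured as a bound site here.

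Totals ran from 3273258 to 6315782 counts a library, and levels are given in CPM, counts scaled to library size, after TMM scaling over all 8 libraries. All 9 genes passed the filter on low counts in every comparison. One library, replicate 1 of young white matter, differed from the rest. Its TMM factor was 0.619, against 0.911 to 1.16 in the other 7 libraries. In it 2 abundant transcripts together held 38.8% of counts, against 6.78% to 20.7%, and their part in the results was not tested. The sum of 16 oligodendrocyte markers was 69757 CPM there, against 231 to 903 CPM in the other 7 libraries, and its 12 microglia markers summed to 3370 CPM, against 13858 to 20232 CPM. It held the highest level of Fth1 and Tfrc and the lowest of Ftl1, Slc40a1, Cp, Slc11a1, Hmox1 and Ireb2 among the 8 libraries, and results that rest on it are given with and without it. The part of each marker list in the results was not tested.

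**Figure D1:**
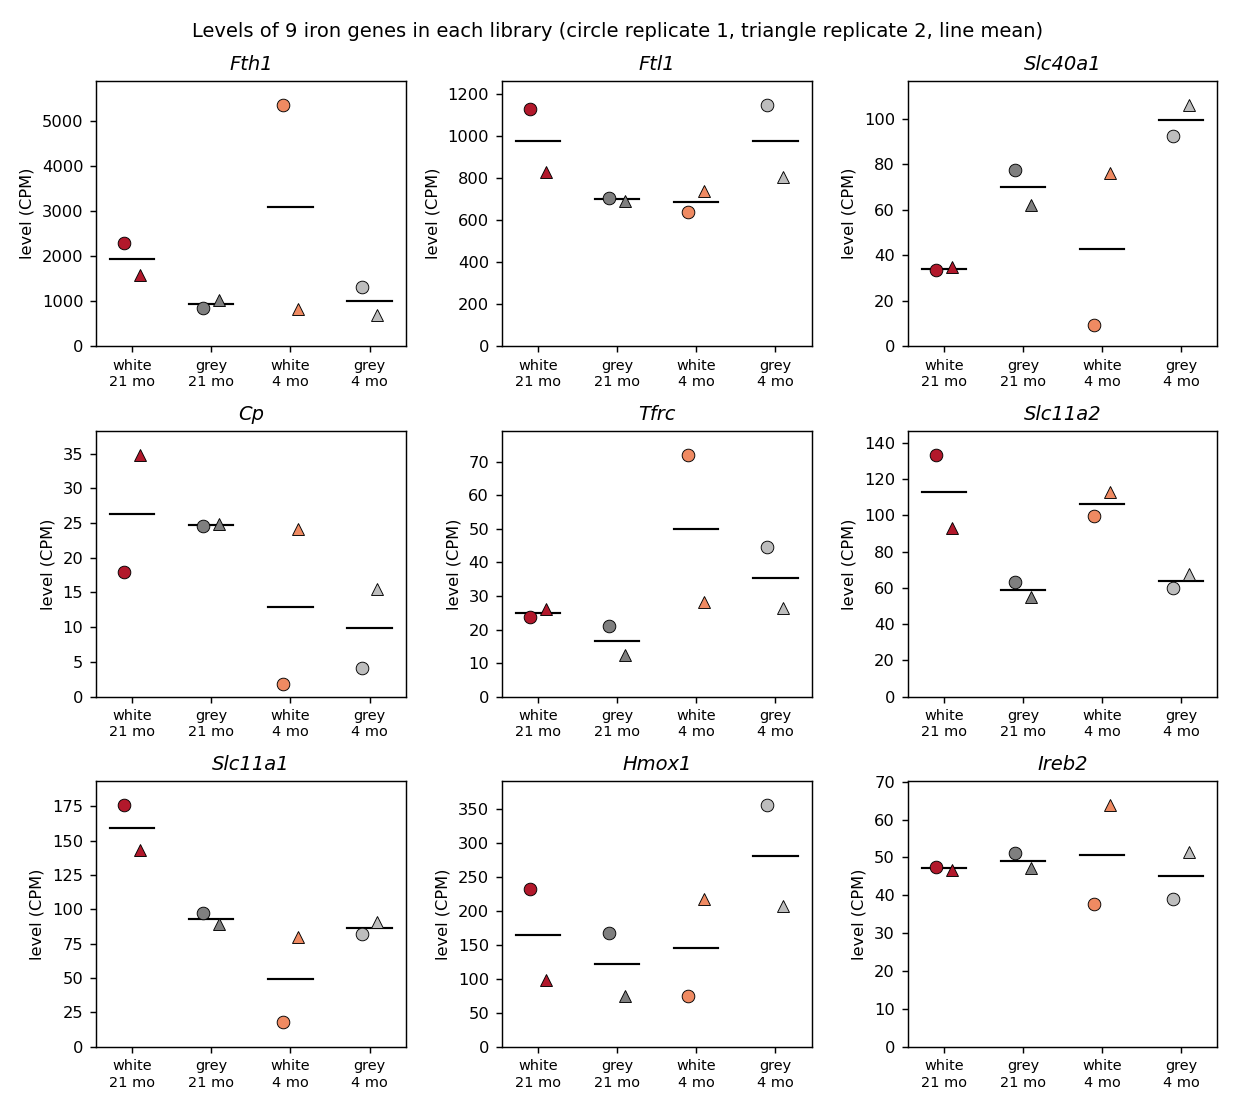
Level of each gene in CPM (vertical axis, starting at 0) in the 8 libraries by group, with a circle for replicate 1, a triangle for replicate 2 and a line at the group mean. Fth1 and Slc11a1 sit highest in old white matter once the first 4-month white matter library (orange circle) is set aside, Slc40a1 is low in both old white matter libraries, and Slc11a2 is higher in all white than in all grey matter libraries.

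White matter was first set against grey matter at 21 months. Old white matter held more ferritin heavy chain message and less ferroportin message than old grey matter in bulk RNA of the selected cells. In edgeR's quasi-likelihood test on the 4 libraries of that age, 2 of the 9 genes were called at an adjusted p under 0.05, 1 higher and 1 lower, where 1.58% of the 14717 genes tested were called, 0.985% higher and 0.591% lower. At an unadjusted p under 0.05, 5 of the 9 passed, against 11.4% of all genes. In 5 genes both white matter libraries lay above both grey matter libraries, a pattern that 21.2% of all genes showed, and in 1 gene below, as in 19.6%. These are bulk samples, in which fewer cells of a type and less RNA per cell cannot be told apart.

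Fth1 encodes the chain of ferritin that oxidises iron as it enters the shell. It stood at 2299 and 1575 CPM in old white matter, against 843 and 1027 CPM in old grey matter. Both white matter libraries were above both grey matter libraries, and the difference was 1.04 ± 0.216 on the log2 scale (SE, n = 2 each; edgeR adjusted p = 0.0455), or 2.06-fold. Oligodendrocyte markers, which come from cells rich in this message, came to 369 and 379 CPM in old white matter, against 252 and 369 CPM in old grey matter. Of these markers 12 of 15 tested lay above 0 and 0 were called, with 1 at an unadjusted p under 0.05.

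Ftl1, the light chain that helps the iron core form, stood at 1130 and 830 CPM in old white matter, against 709 and 691 CPM in old grey matter. The libraries did not overlap, but the difference of 0.48 ± 0.189 was not called (edgeR adjusted p = 0.35). Reads of this gene are divided with near copies. Between 36.2% and 44.7% of the counts of Ftl1 and 3 rows named as its copies fell on Ftl1 itself, while for Fth1 and 11 related rows the share was 93.3% to 95%. With the copies added, an alternative chosen after their counts were seen, Fth1 differed by 1.02 (edgeR adjusted p = 0.0484) and Ftl1 by 0.47 (edgeR adjusted p = 0.382).

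Slc40a1 encodes ferroportin, the only known exporter of iron from mammalian cells. It stood at 33.3 and 35 CPM in old white matter, against 77.2 and 62.2 CPM in old grey matter. Both white matter libraries were lower, by 1.04 ± 0.198 on the log2 scale (change -1.04; SE, n = 2 each; edgeR adjusted p = 0.0278), which left the gene at 0.486 of its grey matter level. Macrophages at the borders of the brain are known to express ferroportin. The sums of 12 of their markers were 209 and 275 CPM in old white matter, against 485 and 511 CPM in old grey matter, with 8 of the 10 markers tested below 0, 2 above 0 and 2 called lower, at a median of -1.24. In the first old white matter library 2 of the 12 markers, Lyve1 among them, had a count of 0.

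Cp, which oxidises exported iron so that transferrin can bind it, stood at 18 and 34.8 CPM in old white matter, against 24.6 and 24.8 CPM in old grey matter. The white matter libraries lay on either side of the grey ones, and the difference was 0.08 ± 0.311 (edgeR adjusted p = 0.967). The library with the higher Cp level also held the choroid plexus gene Ttr at 9006 CPM, against 287 CPM in its partner and 342 and 243 CPM in grey matter. Choroid plexus is a known source of Cp. Pericyte and smooth muscle markers, 11 in all, summed to 795 and 1472 CPM in old white matter, against 1164 and 1374 CPM in old grey matter. The part of either cell source in the Cp values was not tested.

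The transporters that bring iron into the cytosol were higher in old white matter in every library, without passing the test over all genes. Slc11a2 stood at 133 and 93.1 CPM in white matter, against 63.2 and 55 CPM in grey matter, a difference of 0.93 ± 0.208 (edgeR adjusted p = 0.065). Slc11a1 stood at 176 and 143 CPM in white matter, against 97.1 and 89.3 CPM in grey matter, a difference of 0.77 ± 0.174 (edgeR adjusted p = 0.0669). DESeq2 on the same libraries called both, together with Fth1 and Slc40a1 (adjusted p = 0.0334 for Slc11a2, 0.042 for Slc11a1, 9.49e-05 for Fth1 and 0.0213 for Slc40a1), where it called 2.12% of genes. So did edgeR with the replicate number as a block (adjusted p = 0.00475 for Slc11a2 and 0.0105 for Slc11a1), where 3.55% were called. That block was only an alternative, since replicate numbers were not taken to pair libraries. Other alternatives called neither gene. These were edgeR on all 8 libraries, edgeR on 7 with replicate 1 of young white matter set aside, and limma on the deposited normalised values. Slc11a1 is also a gene of neutrophils and monocytes. The sums of 12 neutrophil markers were 952 and 544 CPM in old white matter, against 2584 and 2406 CPM in old grey matter, with all 12 below 0 and 4 called lower. Those of 12 monocyte markers were 755 and 648 CPM in old white matter, against 1233 and 814 CPM in old grey matter, with 11 of 12 below 0 and 4 called lower. Their part in the Slc11a1 difference was not tested.

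Tfrc, the receptor for transferrin-bound iron and the message with 4 hairpins in its 3′ UTR, stood at 23.7 and 26.1 CPM in old white matter, against 21 and 12.3 CPM in old grey matter (difference 0.55 ± 0.31; edgeR adjusted p = 0.581). Its libraries did not overlap, with the second grey matter library the lowest of all 8. Hmox1 stood at 232 and 98.3 CPM in white matter, against 167 and 75.4 CPM in grey matter. Its libraries overlapped, and the spread within a region was wider than the difference of 0.43 ± 0.719 (edgeR adjusted p = 0.92). Ireb2, which encodes IRP2, stood at 47.5 and 46.7 CPM in white matter, against 51.1 and 47.2 CPM in grey matter (difference -0.07 ± 0.187; edgeR adjusted p = 0.95).

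The calls of Fth1 and Slc40a1 depended on which libraries set the spread. In a fit of all 8 libraries Fth1 differed by 1.05 ± 0.845 and Slc40a1 by -1.03 ± 0.777 (edgeR adjusted p = 1 for both), and neither was called among 16237 genes, of which 0% were called and 381 had an unadjusted p under 0.05. Without the first 4-month white matter library, the values were 1.05 ± 0.345 and -1.03 ± 0.224 (edgeR adjusted p = 0.602 and 0.199, with 0.109% of genes called). Within the 21-month fit, the Fth1 call was lost without the first white matter library (adjusted p = 0.0729), the first grey matter library (adjusted p = 0.51) or the second (adjusted p = 0.202). The Slc40a1 call was lost without the first grey matter library (adjusted p = 0.345) or the second (adjusted p = 0.0548). In limma on the deposited normalised values neither passed (adjusted p = 0.081 for Fth1 and 0.0534 for Slc40a1, with 1.05% of genes called).

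**Figure D2:**
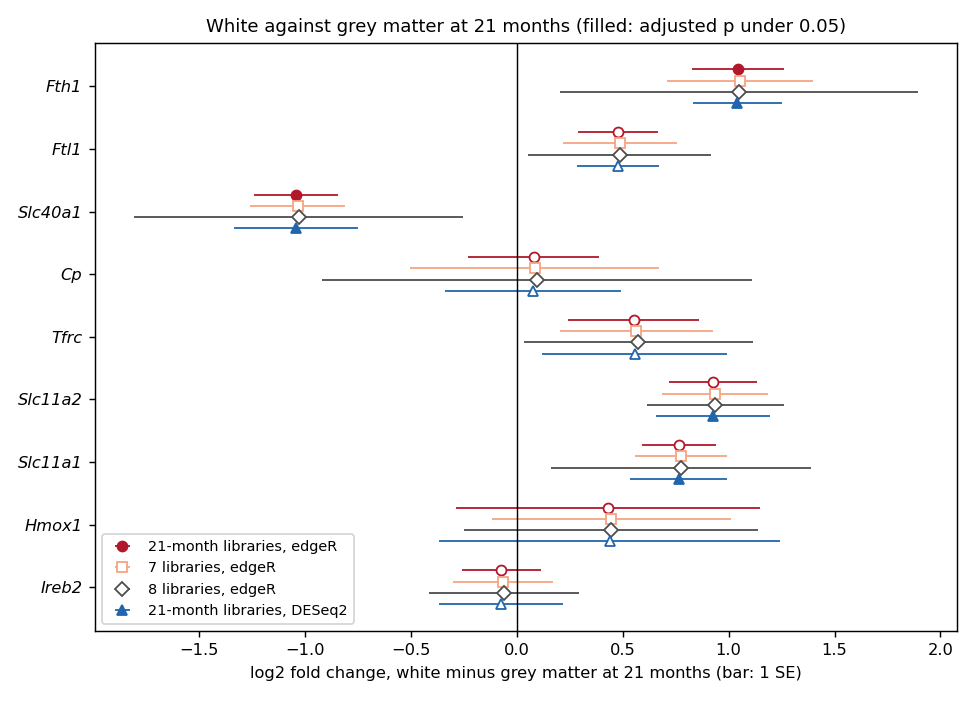
Log2 fold change of the 9 genes, white minus grey matter at 21 months (horizontal axis, bar of 1 SE), in 4 fits, with filled symbols at an adjusted p under 0.05. The positions hardly move between fits while the bars widen with the 4-month libraries: Fth1 lies at 1.04 to 1.05 and Slc40a1 at -1.04 to -1.03.

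The ratio of storage to export message within a library does not depend on scaling and is given as a description, since both genes were already named by their tests. Counts of Fth1 were 68.9 and 45 times those of Slc40a1 in old white matter, against 10.9 and 16.5 times in old grey matter. At 4 months the ratio was 566 and 10.8 in white matter, against 14.2 and 6.51 in grey matter. The second young white matter library thus lay among the grey matter libraries, and the first stood above all others. For Slc11a1 over Slc40a1 the ratio was 5.27 and 4.09 in old white matter, against 1.26 and 1.43 in old grey matter, and it was 1.88 and 1.05 in young white matter, against 0.887 and 0.86 in young grey matter. Between the ferritin rows, the ratio of Fth1 to Ftl1 counts was 2.03 and 1.9 in old white matter. In old grey matter it was 1.19 and 1.49. These rows leave out the near copies, which hold most light chain counts, so this is not a ratio between the chains. With copies added, old white matter held 2420 and 1665 CPM for Fth1, against 2794 and 2125 CPM for Ftl1. Old grey matter held 901 and 1100 CPM for Fth1, against 1854 and 1688 CPM for Ftl1.

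**Figure D3:**
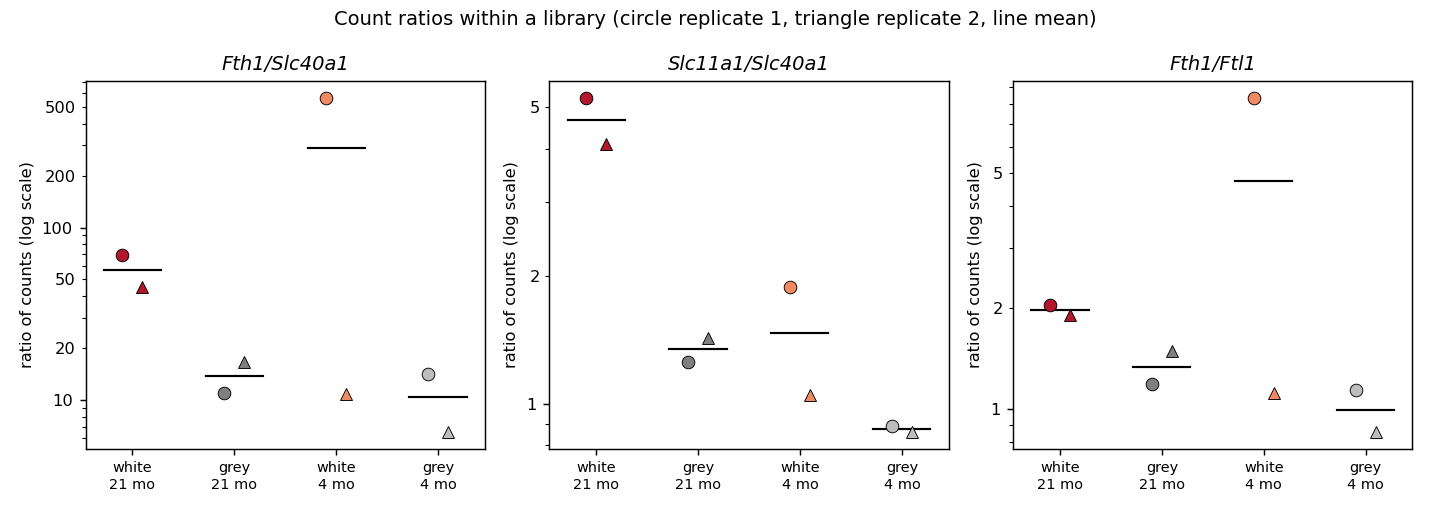
Ratio of the counts of 2 genes in the same library (vertical axis, log scale), by group. Circles mark replicate 1, triangles replicate 2 and lines the mean. Counts are those of each gene's own row, without near copies. Both old white matter libraries lie above both old grey matter libraries in all 3 ratios; the first young white matter library is the highest for Fth1/Slc40a1 (566) and Fth1/Ftl1 (8.37).

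At 4 months the regions were compared in the same way, and no member was called. In edgeR's fit of the 4 young libraries 0% of 14863 genes were called, and 640 (4.31%), none of them a member, had an unadjusted p under 0.05. By DESeq2 447 genes (2.84%) were called, and none of the 9. The pair of white matter libraries differed too much to place most members. Fth1 stood at 5351 and 827 CPM in young white matter, against 1309 and 689 CPM in young grey matter, and its difference was 1.61 ± 1.18 with both libraries (edgeR adjusted p = 1) and -0.24 without the first (edgeR adjusted p = 1). Trf, which encodes transferrin and in the brain is made largely by oligodendrocytes, moved with Fth1 in that library, at 3687 and 409 CPM in white matter, against 511 and 323 CPM in grey matter. Mbp, a myelin gene, stood there at 8228 and 136 CPM in white matter, against 183 and 50.3 CPM in grey matter.

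Of the other members, Slc11a2 was higher and Slc40a1 lower in both white matter libraries at each age. Slc11a2 stood at 99.6 and 113 CPM in young white matter, against 59.8 and 67.8 CPM in young grey matter (difference 0.72 ± 0.509; edgeR adjusted p = 1), and at 0.84 without the first white matter library. All 4 white matter libraries thus lay above all 4 grey matter libraries, as did 1.71% of 16237 genes. Slc40a1 stood at 9.45 and 76.3 CPM in young white matter, against 92.4 and 106 CPM in young grey matter. Both white matter libraries were lower, as at 21 months, but the difference was -1.20 ± 0.98 with the first library and -0.36 without it (edgeR adjusted p = 1 for both). The sums for border-associated macrophages were 61.8 and 303 CPM in young white matter, against 698 and 526 CPM in young grey matter, with all 11 markers tested below 0. Slc11a1 stood at 17.8 and 80.3 CPM in young white matter, against 82 and 91.1 CPM in young grey matter, and Ftl1 at 639 and 740 CPM, against 1149 and 804 CPM. In total 3 members were lower without overlap and 1 was higher, against 15.4% and 13.3% of all genes. Ftl1 was among the lower ones, but with its near copies added the regions overlapped. Its sums were 1458 and 1872 CPM in young white matter, against 3169 and 1798 CPM in young grey matter. The remaining members overlapped between the regions. Tfrc had 72 and 28.1 CPM in young white matter, against 44.5 and 26.5 CPM in young grey matter, and Cp had 1.82 and 24.1 CPM, against 4.19 and 15.5 CPM. Hmox1 had 74.5 and 217 CPM in young white matter, against 355 and 208 CPM in young grey matter, and Ireb2 had 37.8 and 63.7 CPM, against 38.9 and 51.4 CPM. With the first young white matter library alone standing for its group, 4 members were called (Fth1 at 2.36, Slc40a1 at -3.46, Slc11a1 at -2.35 and Hmox1 at -1.98), along with 17.4% of all genes.

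**Figure D4:**
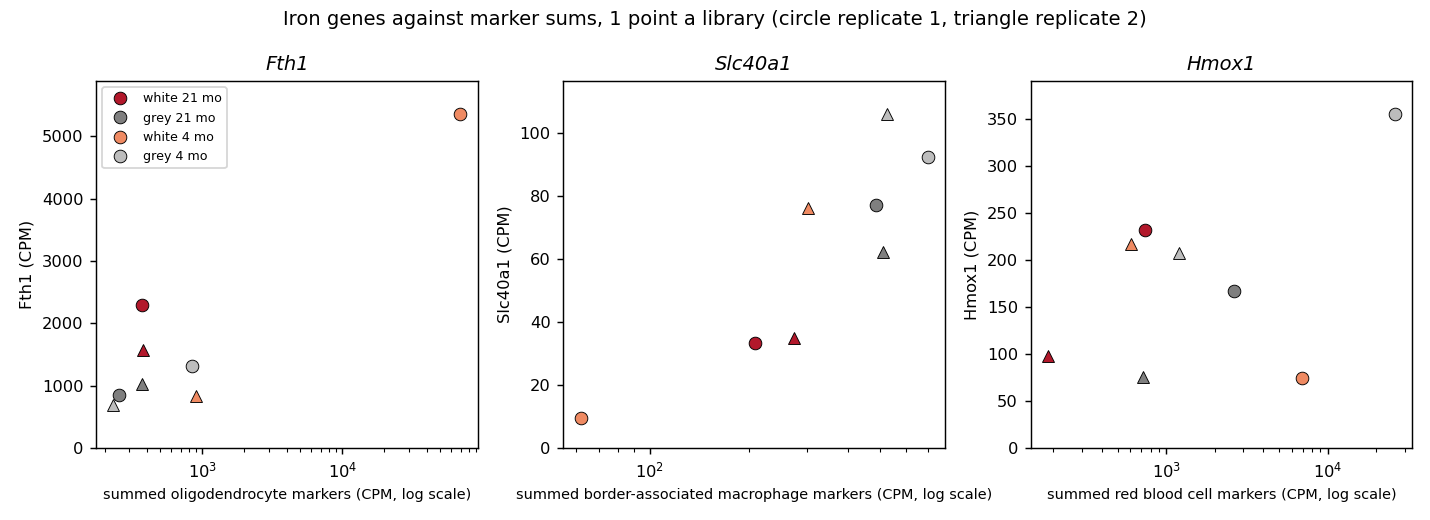
Level of Fth1, Slc40a1 and Hmox1 in CPM (vertical axes, starting at 0) against the summed markers of oligodendrocytes, border-associated macrophages and red blood cells (horizontal axes, CPM, log scale), 1 point a library. The first 4-month white matter library lies far right in the first panel at 69757 CPM and far left in the second at 61.8 CPM; the old white matter libraries have Fth1 levels of 1575 and 2299 CPM at oligodendrocyte sums of 379 and 369 CPM.

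Aging was then compared within each region. In white matter no member was called: 0% of 14623 genes passed in edgeR's test, 415 (2.84%), none of them a member, were under 0.05 before adjustment, and DESeq2 called 373 genes (2.58%) but none of the 9. The change of ferritin heavy chain turned on 1 library. Fth1 stood at 2299 and 1575 CPM at 21 months, against 5351 and 827 CPM at 4 months, a change of -0.68 ± 1.12 with all 4 libraries (edgeR adjusted p = 0.945) and of 1.21 without the first young library (edgeR adjusted p = 0.248). In that smaller fit, where 0.459% of genes and no member were called (0.00571% in the fit of 7 libraries), the second young library alone stood for its group and was taken to vary like the others.

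Slc11a1 was higher in both old white matter libraries, at 176 and 143 CPM, against 17.8 and 80.3 CPM at 4 months. The change was 1.70 ± 0.819 (edgeR adjusted p = 0.945), and 0.97 without the first young library (edgeR adjusted p = 0.231). Slc40a1 stood at 33.3 and 35 CPM at 21 months, against 9.45 and 76.3 CPM at 4 months, so that its old libraries lay between the young ones; its change was -0.33 with all libraries and -1.18 without the first young library (edgeR adjusted p = 0.965 and 0.0852). Ftl1 stood at 1130 and 830 CPM, against 639 and 740 CPM, and did not overlap between the ages (change 0.50 ± 0.654; edgeR adjusted p = 0.945). In all, 2 members were higher and 1 lower without overlap, against 19.8% and 15.4% of genes. Without the second young library 5 members were called (Slc11a1 at 3.19, Cp at 3.86, Slc40a1 at 1.88, Tfrc at -1.51 and Fth1 at -1.44), as were 38.4% of all genes.

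In grey matter Tfrc and Hmox1 were lower and Cp higher in both old libraries, and no change passed the test. EdgeR called 0% of 15255 genes. Before adjustment 419 genes (2.75%) were under 0.05, among them Tfrc and Hmox1, and DESeq2 called 1 gene (0.00334%), which was no member. Tfrc stood at 21 and 12.3 CPM at 21 months, against 44.5 and 26.5 CPM at 4 months, a change of -1.06 ± 0.396 (edgeR adjusted p = 0.977). Hmox1 stood at 167 and 75.4 CPM at 21 months, against 355 and 208 CPM at 4 months, a change of -1.19 ± 0.45 (edgeR adjusted p = 0.977). Slc40a1 stood at 77.2 and 62.2 CPM, against 92.4 and 106 CPM, and Ftl1 at 709 and 691 CPM, against 1149 and 804 CPM. Cp went the other way, at 24.6 and 24.8 CPM, against 4.19 and 15.5 CPM (change 1.33 ± 0.609; edgeR adjusted p = 0.977). The sums of 12 choroid plexus and ependymal markers were 371 and 280 CPM in old grey matter, against 188 and 30.9 CPM in young grey matter, with 6 of 7 tested above 0 at a median of 1.67. Those of 11 pericyte and smooth muscle markers were 1164 and 1374 CPM in old grey matter, against 156 and 981 CPM in young grey matter, with all 11 above 0 at a median of 1.37. In edgeR 0 markers of either list were called, with 1 and 4 at an unadjusted p under 0.05. Their part in the Cp values was not tested. The sums of 12 border-associated macrophage markers were 485 and 511 CPM in old grey matter, against 698 and 526 CPM in young grey matter. Of these 12, 1 lay above 0, 0 were called and 5 had an unadjusted p under 0.05 in edgeR, at a median of -0.70. Their part in the Slc40a1 values was not tested. Without overlap 4 members were lower and 1 higher, against 17.7% and 16.9% of genes. Ftl1 was among the lower ones, but with its near copies added the ages overlapped. Its sums were 1854 and 1688 CPM at 21 months, against 3169 and 1798 CPM at 4 months. Without the second young library 3 members were called (Cp at 2.59, Tfrc at -1.36 and Ftl1 at -0.68), along with 13.7% of all genes. Fth1 and Slc11a1 overlapped between the ages, with changes of -0.07 ± 0.342 and 0.12 ± 0.223.

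Tfrc was lower at 21 months in both regions. In white matter it stood at 23.7 and 26.1 CPM, against 72 and 28.1 CPM at 4 months (change -1.01 ± 0.606; edgeR adjusted p = 0.945), and the change was -0.20 without the first young library. All 4 old libraries lay below all 4 young ones, as did 2.2% of 16237 genes, but by a margin of less than 1 CPM between the nearest pair, the second old white matter library at 26.1 CPM and the second young grey matter library at 26.5 CPM.

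Hmox1 ranged over 4.77-fold among the 8 libraries. In 3 of the 4 groups the first library held more Hmox1 and more red blood cell transcripts than the second. The sums of 8 red cell markers were 736 and 185 CPM for old white matter, 2647 and 720 CPM for old grey matter, 6946 and 602 CPM for young white matter, and 26116 and 1200 CPM for young grey matter. Young white matter was the exception, with Hmox1 at 74.5 and 217 CPM. Ireb2 was the steadiest member, from 37.8 CPM in the first young white matter library to 63.7 CPM in its partner, a 1.69-fold range.

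Whether aging changed these genes differently in white and grey matter was tested with all 8 libraries. No member was called (edgeR adjusted p = 1 for all 9), 0% of 16237 genes were, 455 (2.8%), none of them a member, were under 0.05 before adjustment, and DESeq2 called 28 genes (0.265%) and no member. The difference of the changes, white minus grey matter, was 1.59 ± 0.869 for Slc11a1, 1.39 ± 0.982 for Hmox1, 0.99 ± 0.61 for Ftl1 and -0.58 ± 1.18 for Fth1. Without the first young white matter library, that for Fth1 was 1.30 and that for Slc11a1 0.87 (edgeR adjusted p = 1 for both). Without the second, Slc11a1 (3.09) and Slc40a1 (2.39) were called with 13.6% of all genes. The comparisons share libraries, so their values are given side by side only.

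**Figure D5:**
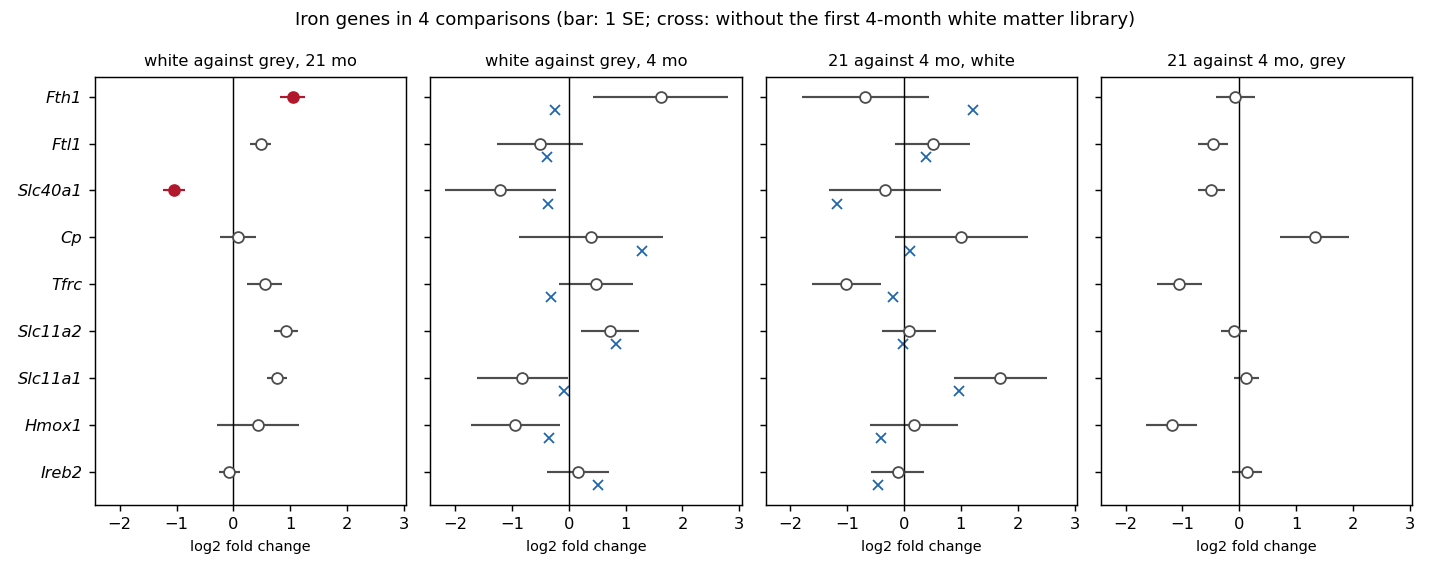
Log2 fold change of the 9 genes in the 4 comparisons (horizontal axes, bar of 1 SE, filled at an adjusted p under 0.05), with blue crosses for values that leave out replicate 1 of young white matter. The 2 filled points are Fth1 at 1.04 and Slc40a1 at -1.04 in white against grey matter at 21 months; for Fth1 the cross lies on the other side of 0 in both comparisons that use young white matter.

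Other genes of iron handling were followed by lists chosen by function, in white against grey matter at 21 months. Of 28 further genes of iron uptake, export and its control, 18 were tested. Of these, 1 was called higher and 2 lower, where 0.985% and 0.591% of all genes were. The median log2 fold change was 0.13, against 0.0066 over all genes. B2m, the partner of the iron regulator Hfe and of MHC class I, averaged 3405 CPM in white matter and 1848 CPM in grey matter (change 0.87 ± 0.184; edgeR adjusted p = 0.0472). Lcn2, which binds iron-loaded siderophores and is abundant in neutrophils, averaged 20 CPM in white matter and 229 CPM in grey matter (change -3.52 ± 0.369; edgeR adjusted p = 0.0116). The metalloreductase Steap4 averaged 1.44 and 11.2 CPM (change -2.92 ± 0.55; edgeR adjusted p = 0.0269). Trf averaged 595 CPM in white matter and 376 CPM in grey matter and was not called (change 0.66; edgeR adjusted p = 0.134).

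Among 18 listed genes of haem handling found in the table, 16 were tested and 1 was called, against 1.58% of all genes. Of the 16, 5 lay above 0, with a median of -0.15. The called gene was Hp, which encodes the haemoglobin-binding protein haptoglobin and also stands in the monocyte list. It averaged 3.96 CPM in white matter and 26.2 CPM in grey matter (change -2.72 ± 0.416; edgeR adjusted p = 0.0101). Cd163, the receptor that takes up haptoglobin with haemoglobin, differed by -1.30 (edgeR adjusted p = 0.423) and is also a marker of border-associated macrophages. Of 17 genes of mitochondrial iron and iron-sulphur clusters tested, none was called and 1 had an unadjusted p under 0.05. The list had 10 of 17 genes above 0, at a median of 0.14. Among its larger changes, Hscb differed by 0.63, Slc25a28 by -0.42 and Hspa9 by 0.36 (edgeR adjusted p = 0.613, 0.675 and 0.667). Slc25a37, which encodes mitoferrin 1, averaged 92.8 CPM in white matter and 123 CPM in grey matter (change -0.43 ± 0.182; edgeR adjusted p = 0.404).

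Hmox1, Fth1, Ftl1 and Slc40a1 are known targets of the oxidative stress factor NRF2, and 23 further genes of that response were listed, of which 20 were tested. The one called gene was lower: Gsr, which encodes glutathione reductase, averaged 16.3 CPM in white matter and 44.3 CPM in grey matter (change -1.46 ± 0.273; edgeR adjusted p = 0.0259). Over all genes 0.591% were called lower. The list had 13 of 20 genes above 0, with a median of 0.28. Of these genes 9 had an unadjusted p under 0.05, against 11.4% of all genes. The 9 went in both directions, with Gsr, Mgst1 (change -1.39) and Osgin1 (change -1.06) lower and the others higher. Srxn1, which repairs oxidised peroxiredoxins, stood at 48 and 23.1 CPM in white matter, against 5.15 and 10.9 CPM in grey matter, and was not called (change 2.17 ± 0.47; edgeR adjusted p = 0.0837). Of the 5 other messages known to carry an iron-responsive element, all were tested, 0 were called and 0 had an unadjusted p under 0.05. Alas2, a red cell gene, differed by -2.04 (edgeR adjusted p = 0.582).

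In the other comparisons none of the genes on these lists was called by edgeR. Several of the largest differences at 4 months lay in genes that were high in the first young white matter library. Slc48a1, a haem transporter, had 603 and 30.4 CPM in young white matter, against 36.1 and 15.5 CPM in young grey matter. App, whose product is the amyloid precursor, had 1713 and 108 CPM in young white matter, against 94.9 and 90.5 CPM in young grey matter. Lcn2 was low in both young white matter libraries, at 18.5 and 49.2 CPM, against 522 and 210 CPM in young grey matter (change -3.42 ± 0.886; edgeR adjusted p = 1). In white matter with age, Slc7a11, which imports cystine for glutathione, had 47.8 and 35.8 CPM at 21 months, against 10.9 and 20.3 CPM at 4 months. Its change was 1.41 ± 0.538 (edgeR adjusted p = 0.945). Of the 22 NRF2 genes tested there, 10 lay above 0. Gstm1 (-2.21), Taldo1 (-2.04) and Gclm (-1.26) of that list were lower at 21 months. The haem genes Slc48a1 (-3.74) and Cpox (-3.67) were lower too, and none of these was called. In grey matter with age, Aco1, whose product is the other iron regulatory protein IRP1, differed by -0.79 ± 0.329 and Cd163 by -1.26 ± 0.375 (edgeR adjusted p = 0.977 for both).

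The genes whose levels followed each member most closely were taken over the 7 libraries other than the first young white matter library, among 7689 genes of at least 10 CPM, as a description. These libraries share groups, so r reflects group differences as well as single libraries. The 3 best for each member had a Pearson r of 0.965 to 0.995. They were picked as the highest of 7689 over only 7 libraries, which by itself favours high values. For Fth1 they were Aldoa (r = 0.986), Itgb2 (0.981) and Ctss (0.98). For Slc40a1 they were Txnip (0.978), Gpr165 (0.973) and Bud13 (0.969). Over all 8 libraries r was 0.995 for Fth1 with Aldoa, but -0.536 with Itgb2 and -0.506 with Ctss. For Slc40a1 it was 0.972 with Txnip, 0.881 with Gpr165 and 0.034 with Bud13. The best match of Slc11a1 was Myo1f (0.992 over 7 libraries and 0.981 over 8), that of Tfrc Slc16a1 (0.987 and 0.971) and that of Ireb2 Stk38l (0.983 and 0.987). Values differed more for Cp with Pcp4l1 (0.987 and 0.85) and Hmox1 with Arrdc1 (0.981 and 0.748). The match of Ftl1 with Sf3a3 (0.995 and 0.531) and of Slc11a2 with Gna13 (0.983 and 0.121) rested on leaving that library out.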

How the data were processed

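Per the labels' protocols, polyadenylated RNA of CD11b-selected cells was read on an Ion Proton sequencer. The authors named Partek and DESeq2, per the submitters' processing notes; the sources used here give no aligner, build, annotation or strand setting. The deposited table holds estimated counts, which were rounded; per library, 14.3% to 15.7% of nonzero values deviated from a whole number by more than 0.001. The authors' normalised signal, deposited for 18448 genes, is the rounded count times 1 factor per library and served 1 alternative, as log2(value + 1) in limma.

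Genes were filtered with filterByExpr and scaled by TMM, and edgeR 4.0.16 (R 4.3.3) quasi-likelihood models, robust, were fitted to the 4 libraries of the 2 groups compared, with 2 residual degrees of freedom, or to all 8 for the difference between aging changes. The fit of 2 groups was chosen because 1 library stood apart; the fit of all 8 was an alternative. Calls were made below 0.05 after Benjamini-Hochberg adjustment over all genes tested. Standard errors come from the F statistic. For 2 against 2 libraries an exact permutation p cannot go below 0.333. Alternatives were DESeq2 1.42.0, limma 3.58.1, RLE, library totals, no filter, a replicate block and leaving out libraries. The fits were tested on simulated counts. The members, lists, tests and named genes were chosen with earlier results of these data known. Named were the members, the 3 best correlated genes a member and called genes of the iron lists. Where none was called, up to 4 a list with the largest change and a mean of 10 CPM were picked. Only some of these are named in the text, by choice and not by a rule. Srxn1, Trf, Cd163, Mgst1 and Osgin1 at 21 months were chosen after their values were seen. The values of 1 listed gene are not reported here.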

Additional observations from a re-analysis of the deposited data

How the results depend on the processing

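The differences of Fth1 and Slc40a1 between white and grey matter at 21 months kept their direction in every alternative, and their calls depended on the spread. Against 232 genes and 2 members, the fit of all 8 libraries called 0 genes and 0 members, the fit of 7 called 19 and 0, no filter called 783 and 4, the replicate block 522 and 4, DESeq2 300 and 4, and limma 193 and 0. At 4 months DESeq2 called 447 genes and no filter 715. For aging in white matter DESeq2 called 373, no filter 9 and the fit of 7 libraries 1. For aging in grey matter DESeq2 called 1 and no filter 39, with 1 member, Hmox1 at -1.20. For the difference of the aging changes DESeq2 called 28 and no filter 470.

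Some directions turned, all of values that were not called. At 4 months Fth1 was -0.25 and Tfrc -0.31 in the fit of 7 libraries, and Cp was -0.15 with the replicate block and -0.22 in limma. For aging in white matter the fit of 7 gave 1.22 for Fth1, -0.0030 for Slc11a2 and -0.40 for Hmox1, library totals gave 0.092 for Ireb2, and Slc40a1 was 0.31 with the block and 0.33 in limma. For aging in grey matter library totals gave 0.087 for Fth1 and 0.023 for Slc11a2, and limma 0.0040 for Fth1. Cp was 0.22 for the difference of the changes in limma. Library totals moved the median of all genes to -0.18 at 4 months, 0.29 and 0.12 for aging in white and grey matter, and 0.14 for the difference. The causes were not tested.

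Leaving out 1 library gave 84 to 457 genes and 0 to 4 members at 21 months, 0 to 2846 and 0 to 4 at 4 months, 0 to 6204 and 0 to 5 for aging in white matter, 0 to 2216 and 0 to 3 for aging in grey matter, and 0 to 2422 and 0 to 2 for the difference. Fth1 then ran from 0.73 to 1.29 at 21 months. Signs varied for Cp (-0.47 to 0.47) and Hmox1 (-0.34 to 1.12) at 21 months. At 4 months they varied for Fth1 (-0.24 to 2.36), Cp (-2.51 to 1.67), Tfrc (-0.31 to 0.96) and Ireb2 (-0.33 to 0.52). For aging in white matter they varied for Fth1 (-1.44 to 1.21), Slc40a1 (-1.18 to 1.88), Slc11a2 (-0.21 to 0.34), Hmox1 (-0.60 to 1.17) and Ireb2 (-0.46 to 0.34). For aging in grey matter they varied for Fth1 (-0.45 to 0.43), Slc11a2 (-0.21 to 0.024) and Ireb2 (-0.076 to 0.38). For the difference they varied for Fth1 (-1.34 to 1.30), Slc40a1 (-0.67 to 2.39), Cp (-1.55 to 2.54), Tfrc (-0.42 to 0.88), Slc11a2 (-0.091 to 0.46) and Ireb2 (-0.57 to 0.23).

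The replicate numbers were not taken to pair libraries: with only 2 numbers, deviations of same-numbered libraries correlated at 0.0904 between regions at 21 months, 0.472 at 4 months, 0.0067 for aging in white matter and -0.126 in grey matter. The crossed pairing in grey matter, chosen after seeing the data, called 0 genes, with 437 at an unadjusted p under 0.05. With 2 libraries a group, a lone library left in a group is assumed to vary like the others, and the spread within young white matter limits what these counts can show.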
